A study of Homo sapiens with 32 samples.

Results

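Desmosomes are the junctions that rivet neighbouring epithelial cells to each other and anchor their keratin filaments. The 10 genes described here encode their parts, namely the desmosomal cadherins DSC2, DSC3, DSG2 and DSG3, the armadillo proteins JUP, PKP1, PKP2 and PKP3, the linker DSP, and the membrane protein PERP. They were chosen by name as genes of 1 junction, and all 10 were found among the 17788 genes of the count table. The RNA-seq data comprised 32 libraries from clones of MCF10A, a human breast epithelial line that does not form tumours. Clones 27 and 2 carried wild-type JUNB (WT). Clones 1 and 65 were labelled JUNB knock-out. They are called mut here because their extended CRISPR/Cas9 deletion left a smaller JUNB polypeptide. Every clone was derived from a single cell, so that 2 clones stand for each genotype. Each clone received solvent (bovine serum albumin in buffered saline) or TGFβ1 at 5 ng/ml, the latter for 6, 24 or 72 h. There were 2 replications, which made 8 groups of 4 libraries. Per the study, the solvent controls were treated for 72 h, and every TGFβ1 time is compared with these same controls. JUNB belongs to the AP-1 family of transcription factors, and TGFβ1 is a cytokine that drives epithelial-mesenchymal transition (EMT) in these cells. The comparisons address how the junction's genes respond to TGFβ1 and whether the response differs with JUNB.

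In a desmosome the extracellular domains of desmogleins (DSG) and desmocollins (DSC) bind those of the adjacent cell. Inside the cell their tails hold plakoglobin (JUP) and plakophilins (PKP), which bind desmoplakin (DSP), and desmoplakin grips the keratin filaments. In stratified and glandular epithelia DSG2 and DSC2 are known as the widely expressed cadherins, whereas DSG3 and DSC3 mark basal cells. Loss of desmosomes is a classical step of EMT. PERP is a p53- and p63-responsive membrane protein required for desmosome assembly in stratified epithelia.

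The 4 cadherin genes lie in 1 cluster on chromosome 18 (GRCh38, GENCODE 44), DSC3 at chr18:30989365-31042815 and DSC2 at chr18:31058840-31102522 on the minus strand, DSG3 at chr18:31447741-31478702 and DSG2 at chr18:31498177-31549008 on the plus strand. The other cadherins of the cluster were nearly silent, with 72 counts for DSC1, 655 for DSG1 and 186 for DSG4 summed over all libraries, against 110326 for DSC2, the least counted of the 4. DSG2 shares exonic sequence with the antisense gene DSG2-AS1, and the library kit keeps no strand information, so reads of this overlap cannot be told apart. DSP lies at chr6:7541338-7586714 (plus strand), PERP at chr6:138088505-138107419 (minus), JUP at chr17:41754604-41786931 (minus), PKP1 at chr1:201283452-201332993 (plus), PKP2 at chr12:32790745-32896798 (minus) and PKP3 at chr11:392614-404908 (plus).

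The promoters of the 4 expressed cadherin genes and of PERP are shown because the cadherins lie side by side yet moved in different directions, and because PERP alone held an AP-1 site. Each is the RefSeq sequence (GRCh38.p14) from 250 bases before to 50 bases after an annotated start, read 5′ to 3′ along the gene. Capitals mark the E-box CAGGTG, the sequence bound by the SNAIL and ZEB repressors, or the AP-1 site TGANTCA, each searched on both strands.
DSC2, chr18:31102372-31102671, minus strand: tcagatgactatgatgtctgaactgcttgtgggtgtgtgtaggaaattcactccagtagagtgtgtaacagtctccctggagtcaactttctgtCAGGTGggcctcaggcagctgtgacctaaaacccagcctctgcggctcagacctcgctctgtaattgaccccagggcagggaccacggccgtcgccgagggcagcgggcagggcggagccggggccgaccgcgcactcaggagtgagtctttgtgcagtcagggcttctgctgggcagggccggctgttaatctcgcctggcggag
DSC3, chr18:31042693-31042992, minus strand: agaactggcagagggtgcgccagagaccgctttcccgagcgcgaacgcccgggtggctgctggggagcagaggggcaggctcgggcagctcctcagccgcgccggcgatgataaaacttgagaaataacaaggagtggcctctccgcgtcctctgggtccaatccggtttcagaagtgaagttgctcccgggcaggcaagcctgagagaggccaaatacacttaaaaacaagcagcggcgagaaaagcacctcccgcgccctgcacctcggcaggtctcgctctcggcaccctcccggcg
DSG2, chr18:31497927-31498226, plus strand: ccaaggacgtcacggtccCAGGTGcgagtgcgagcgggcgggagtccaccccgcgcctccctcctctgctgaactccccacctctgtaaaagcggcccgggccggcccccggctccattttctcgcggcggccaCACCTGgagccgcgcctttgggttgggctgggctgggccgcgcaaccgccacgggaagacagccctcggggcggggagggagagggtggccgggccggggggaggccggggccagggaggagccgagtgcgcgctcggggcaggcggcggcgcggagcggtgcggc
DSG3, chr18:31447491-31447790, plus strand: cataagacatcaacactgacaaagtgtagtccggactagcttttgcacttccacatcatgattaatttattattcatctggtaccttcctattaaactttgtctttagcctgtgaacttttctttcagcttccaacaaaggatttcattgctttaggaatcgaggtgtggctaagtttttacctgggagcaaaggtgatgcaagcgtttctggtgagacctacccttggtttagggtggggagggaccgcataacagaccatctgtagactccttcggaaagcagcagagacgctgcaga
PERP, chr6:138107370-138107669, minus strand: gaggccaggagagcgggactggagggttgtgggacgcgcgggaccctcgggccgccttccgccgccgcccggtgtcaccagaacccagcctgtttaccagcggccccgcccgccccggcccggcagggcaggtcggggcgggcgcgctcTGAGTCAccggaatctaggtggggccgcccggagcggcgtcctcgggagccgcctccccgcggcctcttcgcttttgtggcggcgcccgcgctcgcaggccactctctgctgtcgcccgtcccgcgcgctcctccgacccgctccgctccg

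Windows were given for 8 of the 10 members, 2 each for DSC2 and JUP, and those of PKP2 and PKP3 were not analysed here. The E-box occurred in 4 of the 10 windows, against 20.6% of all 35116 promoter windows of this length. It stood at position -156 from the start in DSC2, at -232 and -116 in DSG2, at -178 and -85 in DSP and at -54 and -43 in JUP. The second windows of DSC2 and JUP held none. The windows of DSC3 and DSG3, shown above, held neither motif. The AP-1 site occurred in 1 of the 10 windows, that of PERP, at position -101, against 7.71% of all windows. A match describes these letters only and shows no binding.

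Libraries held between 39702412 and 54651906 counts, so that 3 counts correspond to at most 0.0756 CPM (counts per 1e6 counts of the library), and every member lay above this floor in every library. All 8 mammary epithelial markers were present in all 32 libraries, summing to 5798 to 14841 CPM. KRT5 (3262 to 8158 CPM) and KRT17 (1059 to 4761 CPM) reached the highest values, whereas EPCAM lay between 9.23 and 82.7 CPM and CDH1 between 147 and 599 CPM. The sums were 7095 to 9480 CPM in WT solvent, 5798 to 8864 CPM in WT 72 h, 10480 to 12591 CPM in mut solvent and 8960 to 11819 CPM in mut 72 h. Of the defining leukocyte and endothelial markers, PTPRC did not exceed 0.0498 CPM, CD3E 0.0457 CPM and VWF 0.14 CPM. CD68, the other leukocyte marker listed and a lysosomal protein also made by other cells, lay between 5.64 and 24.4 CPM. The 3 leukocyte markers summed to 8.93 to 14.3 CPM in WT solvent, 16.6 to 24.5 CPM in WT 72 h, 5.93 to 7.48 CPM in mut solvent and 9.12 to 11.4 CPM in mut 72 h. Fibroblast markers in the table (4 of 5, without LUM) summed to 15.1 to 21.8 CPM in WT solvent, 66.5 to 90.2 CPM in WT 24 h and 42.7 to 52.8 CPM in mut 72 h, most of it COL1A1 and DCN. Their part in the results was not tested. JUNB transcript lay between 89.7 and 117 CPM in WT solvent and between 69.2 and 172 CPM in mut solvent, overlapping ranges. Counts over the whole gene do not test the deletion, so JUNB does not check the genotype labels.

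A clone with its replication number is called a series, such as 27-2. The series 27-2 stood apart among WT libraries for some members. It was the lowest of the 4 in all 4 WT groups for DSG3, DSP, PKP1 and PERP, and in 3 of 4 for PKP2 and JUP. For DSC2 and DSG2 it was the lowest in 2 of 4 groups, and for DSC3 and PKP3 in 1 of 4. Averaged over the 4 WT groups, its DSG3 level lay 0.76 below the group mean on the log2 scale, its DSC2 level 0.56 below and its DSP level 0.47 below. In WT solvent, for example, DSG3 had an SD of 113 CPM around a mean of 372 CPM, whereas the mut solvent libraries had an SD of 50.7 CPM around 459 CPM (n = 4 each). Since libraries of a series deviated together, fits with the series as a replicate block, which compare each treated library with the solvent library of its own series, are given where they alter a call. Such fits count the 2 replications of a clone as separate samples, as the limma-voom test without the block does, and values with the replications summed to 1 sample per clone (clone sums) are given beside them where these lose the call.

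Levels between genes were compared per length (counts per kilobase of all annotated exons of a gene, scaled to 1e6 per library). The transcripts present may be shorter than this length, an error between genes that the SD of libraries does not measure. In WT solvent, PERP was the most abundant member at 988 ± 166 (SD, n = 4), followed by JUP at 368 ± 64.3. DSG3 (274 ± 84.7), DSP (245 ± 56.0), PKP3 (230 ± 19.1) and DSG2 (193 ± 15) formed a middle group, in which DSG3, DSP and PKP3 did not differ beyond their spread, while DSG2 lay below PKP3 by slightly more than their SDs. DSC3 (81.4 ± 12.0), PKP2 (43.8 ± 3.73) and DSC2 (23.2 ± 7.59) were lower, each separated from the next by more than their SDs. PKP1, the plakophilin of suprabasal keratinocytes, was barely present at 0.276 ± 0.211. At 72 h the mean of DSG2 lay above that of DSG3 in both genotypes, at 241 ± 2.32 against 163 ± 67.2 in WT and 220 ± 33.9 against 161 ± 21.2 in mut cells. Summed over the 10 members, CPM was 3622 ± 579 in WT solvent and 3177 ± 536 in WT 72 h, and 3733 ± 113 in mut solvent and 2950 ± 57.7 in mut 72 h. The lowest mut solvent sum (3615 CPM) exceeded the highest mut 72 h sum (3012 CPM), while the WT ranges overlapped.

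With TGFβ1 the desmosomal genes moved in both directions. At 72 h in WT cells DSC3, DSG3, PKP2, PKP3 and PERP were lower than in solvent and DSG2 was higher (adjusted p below 0.05, limma-voom). That is 5 of 10 lower and 1 of 10 higher, where 38.4% of all 14865 genes tested were lower and 13.9% higher, so the members' shares lie near the background. Their median log2 fold change of -0.19 equalled that of all genes. In mut cells at 72 h 4 of 10 were lower (DSC3, DSG3, PKP2 and PKP3) and none higher, against 16.3% lower and 7.81% higher of all genes. Here the members' median was -0.31 and that of all genes -0.09. At 24 h PKP2 and PKP3 were lower and DSC2 and JUP higher in WT cells, against 38% and 14.1% of all genes. In mut cells only PKP2 was called at 24 h, lower, against 17.1% lower and 6.75% higher. At 6 h PKP2 was the 1 member called in either genotype, lower in both, against 11.9% lower and 5.13% higher of all genes in WT and 4.94% and 2.06% in mut cells.

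With the series as a replicate block, calls in either direction numbered 4 of 10 at 6 h, 8 at 24 h and 6 at 72 h in WT cells, against 25.9%, 59.6% and 60% of all genes. In mut cells they numbered 3, 5 and 8, against 16.5%, 35% and 33.9%. Scaling by library size left the median of all genes at -0.18 at 24 h and -0.19 at 72 h in WT cells. With TMM (trimmed mean of M-values) factors these medians were 0.00 and -0.03, and the split of all genes at 72 h became 23.3% lower and 21.5% higher in WT and 9.91% and 10.7% in mut cells. The members' split in WT cells then became 1 lower and 3 higher at 24 h and 4 lower and 2 higher at 72 h, and in mut cells at 72 h 3 lower and 1 higher. With the series block and TMM factors together 5 members were lower and 4 higher in WT cells at 72 h, when DSC2 (0.33, adjusted p = 0.00922) and DSP (0.17, adjusted p = 0.0275) were among those called higher. Clone sums, without TMM factors, called neither of these 2 (adjusted p = 0.454 and 0.923). Decreases of members are thus smaller, and increases larger, relative to the bulk of genes, and values with TMM factors are given where a call changes.

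**Figure D1:**
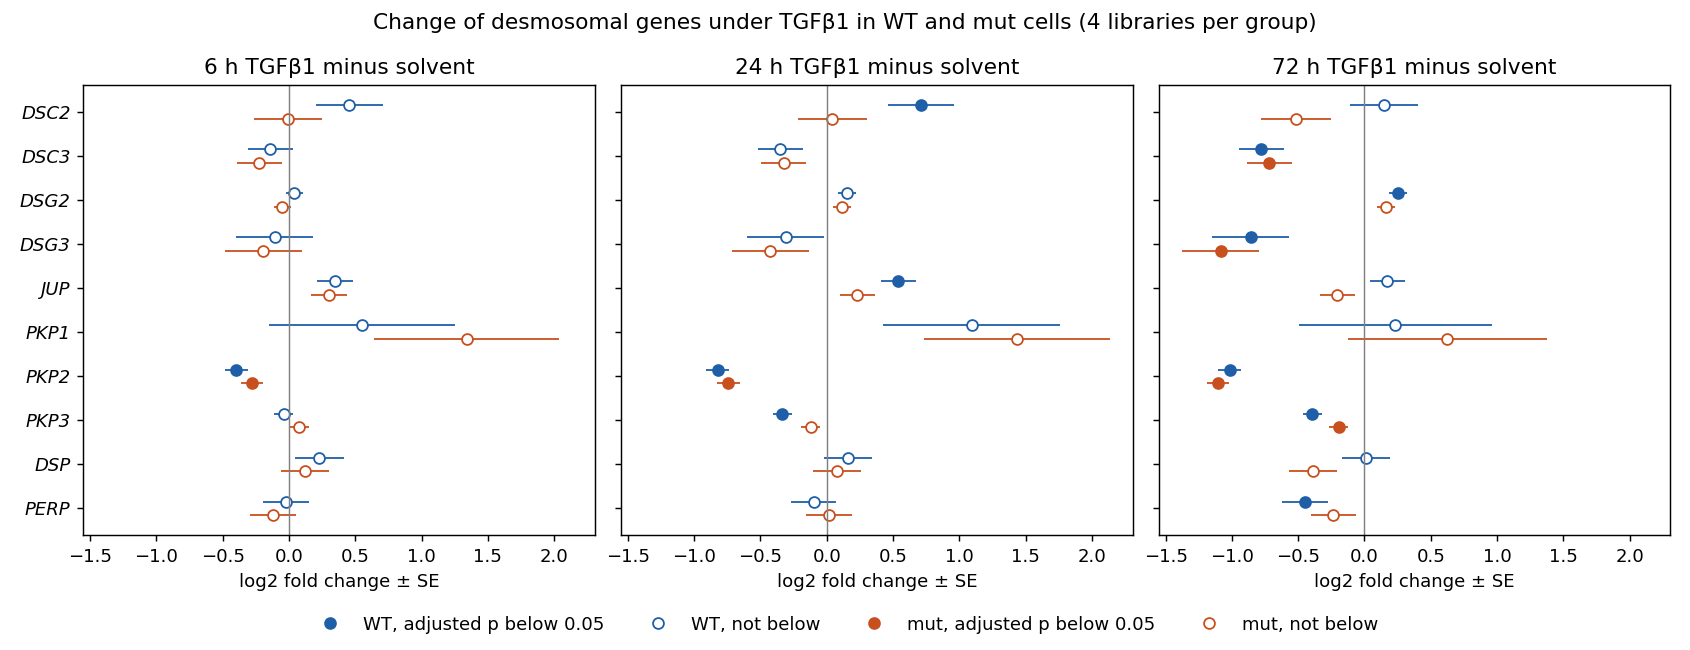
log2 fold change ± SE (x axis) of each member (y axis) at 6, 24 and 72 h of TGFβ1 against solvent in WT (blue) and mut (orange) cells, 4 libraries per group; filled points had an adjusted p below 0.05. PKP2 lies left of 0 in all 6 comparisons, while DSC2 and JUP lie right of 0 in WT cells.

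Among the cadherins, the basal pair DSC3 and DSG3 fell. DSC3, the desmocollin of basal layers, had 140, 141, 183 and 144 CPM in WT solvent (series 2-1, 2-2, 27-1 and 27-2) and 81.8, 55.3, 130 and 102 CPM in WT 72 h. All WT 72 h values lay below all solvent values. In mut cells the solvent libraries (1-1, 1-2, 65-1 and 65-2) had 222, 216, 193 and 222 CPM and the 72 h libraries 129, 131, 138 and 121 CPM, again without overlap. The log2 fold change at 72 h was -0.78 ± 0.17 (SE) in WT (adjusted p = 0.000419) and -0.72 ± 0.17 in mut cells (adjusted p = 0.00227), and both calls held in all 20 alternatives. At 24 h the changes of -0.35 in WT (adjusted p = 0.0869) and -0.32 in mut (adjusted p = 0.163) were called with the series block (adjusted p = 0.00801 and 0.0183) and not with clone sums (adjusted p = 0.197 and 0.262). The WT value at 24 h also passed without the library WT 24 h 27-1 (-0.54, adjusted p = 0.00641), and its adjusted p over all alternatives ranged up to 0.519.

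DSG3, the desmoglein of basal keratinocytes, had 413, 374, 483 and 216 CPM in WT solvent and 249, 146, 314 and 131 CPM in WT 72 h. These groups overlapped because the solvent library of 27-2 was low, yet each series was lower at 72 h than in solvent. The mut libraries fell from 460, 486, 388 and 502 CPM to 199, 248, 187 and 232 CPM without overlap. The log2 fold change was -0.86 ± 0.29 in WT (adjusted p = 0.015) and -1.09 ± 0.29 in mut cells (adjusted p = 0.00705). The WT call was lost without WT solvent 27-1 (-0.71, adjusted p = 0.0605), WT 72 h 2-2 (-0.72, adjusted p = 0.0621) or WT 72 h 27-2 (-0.66, adjusted p = 0.0727) and in the edgeR test (-0.67, adjusted p = 0.0511), whereas the series block gave 3.51e-07. With the block DSG3 was also called at 24 h, at -0.30 in WT (adjusted p = 0.0216) and -0.42 in mut cells (adjusted p = 0.00422), both lost with clone sums (adjusted p = 0.205 and 0.0798).

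DSG2, the desmoglein of simple epithelia, moved the other way. It had 422, 423, 485 and 452 CPM in WT solvent and 531, 537, 530 and 524 CPM in WT 72 h, with no overlap. The rise of 0.25 ± 0.07 on the log2 scale (adjusted p = 0.00208) held in all 20 alternatives. In mut cells the solvent libraries had 433, 474, 430 and 448 CPM and the 72 h libraries 528, 554, 522 and 408 CPM, of which the series 65-2 alone was lower than its solvent library. The mut change of 0.16 ± 0.07 (adjusted p = 0.0742) passed without mut 72 h 65-2 (0.26, adjusted p = 0.000697) and with TMM factors (0.24, adjusted p = 0.0111). With TMM factors DSG2 was also higher at 24 h, by 0.33 in WT (adjusted p = 0.0002) and 0.20 in mut cells (adjusted p = 0.037).

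DSC2 is the widely expressed desmocollin. It had 88.0, 50.7, 92.5 and 51.0 CPM in WT solvent, 132, 91.5, 171 and 74.2 CPM in WT 24 h and 89.9, 55.4, 116 and 56.4 CPM in WT 72 h. Each series was above its solvent library at 24 h, by 0.54 to 0.89 on the log2 scale, although the groups overlapped. The mut solvent libraries had 64.7, 61.6, 62.2 and 63.1 CPM and the mut 24 h libraries 66.3, 64.5, 66.0 and 62.7 CPM, a change of -0.01 to 0.08 within series. At 72 h the mut libraries had 45.5, 43.4, 48.6 and 38.8 CPM, all below every mut solvent library. The WT rise at 24 h was 0.71 ± 0.25 (adjusted p = 0.0187). It was lost without WT solvent 2-2 (adjusted p = 0.0767), WT solvent 27-2 (0.0709), WT 24 h 2-1 (0.0552) or WT 24 h 27-1 (0.105). It was also lost when only these 2 groups were fitted (adjusted p = 0.0668), and the series block gave an adjusted p of 8.1e-07. The mut value of -0.52 ± 0.26 at 72 h (adjusted p = 0.159) passed with the series block (adjusted p = 0.000425) and with clone sums (adjusted p = 0.0216). The WT value at 6 h passed with the block (0.47, adjusted p = 0.00112) and not with clone sums (adjusted p = 0.0663).

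Of the armadillo proteins, PKP2 gave the most uniform response. PKP2 is the plakophilin of simple epithelia and heart, where it links cadherin tails to desmoplakin. Its WT solvent libraries had 107, 121, 110 and 99.2 CPM, and its WT 72 h libraries 53.7, 47.5, 58.1 and 57.1 CPM. The mut libraries started higher, at 176, 168, 160 and 169 CPM, and reached 78.3, 78.7, 84.8 and 71.4 CPM. For WT cells log2 fold changes were -0.40 ± 0.09 at 6 h (adjusted p = 0.00167), -0.82 ± 0.09 at 24 h (adjusted p = 1.02e-08) and -1.02 ± 0.09 at 72 h (adjusted p = 4.23e-10). In mut cells it was -0.28 ± 0.08 (adjusted p = 0.0378), -0.74 ± 0.08 (adjusted p = 3.59e-07) and -1.11 ± 0.08 (adjusted p = 6.94e-10). Every series was lower at each time than in solvent, and the groups did not overlap from 6 h in WT cells and from 24 h in mut cells. The mut call at 6 h was lost without mut solvent 1-1, 1-2 or 65-2 or mut 6 h 1-1, 65-1 or 65-2 (adjusted p between 0.0723 and 0.181). It was also lost with TMM factors (-0.22, adjusted p = 0.0893) and with clone sums (adjusted p = 0.122). Its adjusted p ranged from 0.00501 to 0.181 over all alternatives. The other 5 calls held in all 20 alternatives.

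PKP3, another plakophilin, fell less. WT solvent libraries had 234, 205, 217 and 191 CPM, WT 24 h libraries 166, 163, 177 and 164 CPM and WT 72 h libraries 166, 150, 175 and 152 CPM, so both treated groups lay below solvent without overlap. The log2 fold change was -0.34 ± 0.07 at 24 h (adjusted p = 0.000265) and -0.40 ± 0.07 at 72 h (adjusted p = 4.16e-05). With TMM factors the 24 h value was -0.16 (adjusted p = 0.0669) and the 72 h value -0.23 (adjusted p = 0.00801). In mut cells PKP3 went from 218, 197, 236 and 230 CPM in solvent to 180, 180, 196 and 215 CPM at 72 h, overlapping groups. That change of -0.19 ± 0.07 (adjusted p = 0.0465) was lost without mut solvent 1-1, 65-1 or 65-2 or mut 72 h 1-1, 1-2 or 65-1 (adjusted p between 0.061 and 0.145). It was also lost with TMM factors (-0.12, adjusted p = 0.256) and with clone sums (adjusted p = 0.148).

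PKP1 had 6 to 114 counts per library, between 0.121 and 2.09 CPM. It was not called in any comparison by limma-voom, with log2 fold changes of 1.09 ± 0.67 in WT (adjusted p = 0.173) and 1.43 ± 0.70 in mut cells at 24 h (adjusted p = 0.139). All 8 series were higher at 24 h than in solvent, and the series block gave adjusted p = 0.000709 in WT and 0.00513 in mut cells. Clone sums (adjusted p = 0.00464 and 0.0257) and DESeq2 (adjusted p = 0.0206 and 0.0463) also called both, and edgeR called WT (adjusted p = 0.0311) but not mut cells (adjusted p = 0.074). At 6 h the mut value of 1.34 (adjusted p = 0.251) passed with the block (adjusted p = 0.0161) and not with clone sums (adjusted p = 0.112). Without WT 24 h 27-2 the WT value was 1.80 (adjusted p = 0.0103). At these counts the size of the change is poorly determined.

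JUP encodes plakoglobin, which serves both desmosomes and adherens junctions. It had 495, 414, 509 and 346 CPM in WT solvent, 623, 565, 809 and 569 CPM in WT 24 h and 525, 442, 627 and 399 CPM in WT 72 h. All WT 24 h libraries exceeded all solvent libraries, and the WT 72 h libraries overlapped them. The WT value at 72 h was 0.17 (adjusted p = 0.286), which passed as an increase with TMM factors (0.33, adjusted p = 0.0352), edgeR (adjusted p = 0.0351), DESeq2 (adjusted p = 0.0172) and the block with TMM factors (adjusted p = 0.000939), but not with the block alone (adjusted p = 0.0547). The rise at 24 h was 0.54 ± 0.13 (adjusted p = 0.00113) and held in all 20 alternatives. At 6 h the WT value was 0.35 ± 0.13 (adjusted p = 0.0725), which passed with the series block (adjusted p = 0.00129), with TMM factors (0.42, adjusted p = 0.0283), without WT solvent 27-1 (0.42, adjusted p = 0.0455) and without WT 6 h 27-2 (0.46, adjusted p = 0.0182). In mut cells JUP had 381, 312, 388 and 348 CPM in solvent and 324, 293, 307 and 312 CPM at 72 h. The mut values were 0.30 at 6 h (adjusted p = 0.164), 0.23 at 24 h (adjusted p = 0.213) and -0.20 at 72 h (adjusted p = 0.279), all called with the series block (adjusted p = 0.00838, 0.02 and 0.0402). With clone sums none of the 3 was called (adjusted p = 0.139, 0.131 and 0.162), nor were the WT values at 6 h (adjusted p = 0.0524) and 72 h (adjusted p = 0.212). With the block and TMM factors together the mut value at 72 h was -0.13 (adjusted p = 0.247).

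DSP, the plakin that ties the plaque to keratins, was not called against solvent in either genotype by limma-voom. WT libraries had 996, 835, 864 and 550 CPM in solvent and 942, 752, 916 and 626 CPM at 72 h, a change of 0.01 ± 0.18 (adjusted p = 0.966). The mut libraries had 853, 739, 847 and 783 CPM in solvent and 707, 579, 709 and 495 CPM at 72 h, with every 72 h library below every solvent library. The mut change of -0.38 ± 0.18 (adjusted p = 0.124) passed with the series block (adjusted p = 6.01e-05) and not with clone sums (adjusted p = 0.0604). With the block the WT values at 6 h (0.23, adjusted p = 0.0132) and 24 h (0.16, adjusted p = 0.0448) passed as increases, which clone sums did not call (adjusted p = 0.379 and 0.308).

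PERP had 1169, 976, 1104 and 783 CPM in WT solvent and 842, 651, 898 and 575 CPM in WT 72 h. The groups overlapped, while each series was lower at 72 h, by 0.30 to 0.58 on the log2 scale. The change of -0.45 ± 0.17 (adjusted p = 0.0285) was -0.29 with TMM factors (adjusted p = 0.155). It was also lost without WT solvent 2-1 (-0.37, adjusted p = 0.0967), WT solvent 27-1 (-0.40, adjusted p = 0.0769), WT 72 h 2-2 (-0.39, adjusted p = 0.083) or WT 72 h 27-2 (-0.34, adjusted p = 0.121), and the series block gave 4.9e-05. In mut cells PERP had 1068, 1025, 912 and 998 CPM in solvent and 794, 800, 819 and 1000.3 CPM at 72 h, the last being 65-2. The mut change was -0.23 ± 0.17 (adjusted p = 0.344), or 0.0321 with the series block and 0.211 with clone sums.

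Between genotypes the members differed in both directions. PKP2 was higher in mut cells in solvent and at each time, DSC3 and PKP3 were higher at 24 and 72 h, and DSC2 and JUP were lower at 24 and 72 h. In solvent 1 of 10 members was higher and none lower, against 6.38% and 6.32% of all genes. At 6 h 1 of 10 was higher and none lower, against 11.3% higher and 10% lower. The same 5 members, 3 higher and 2 lower, were called at both later times. Of all genes 24.7% were higher and 12.2% lower at 24 h, and 26% and 13.2% at 72 h. The members' shares thus lie near those of all genes in each state. Clones are nested in genotype, so no series block can be fitted here, and p-values rest on 2 clones per genotype.

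PKP2 libraries of the 2 genotypes did not overlap in any of the 4 states. The log2 difference, mut minus WT, was 0.62 ± 0.08 in solvent (adjusted p = 6.23e-06), 0.74 ± 0.09 at 6 h (adjusted p = 2.58e-07), 0.70 ± 0.09 at 24 h (adjusted p = 5.07e-07) and 0.53 ± 0.09 at 72 h (adjusted p = 2.73e-05). These 4 calls held in all 19 alternatives. PKP3 had 163 to 177 CPM in WT 24 h and 189 to 218 CPM in mut 24 h, and its differences were 0.27 ± 0.07 at 24 h (adjusted p = 0.00361) and 0.26 ± 0.07 at 72 h (adjusted p = 0.00517). At 6 h the PKP3 value of 0.18 (adjusted p = 0.0788) passed without WT 6 h 27-1 (0.21, adjusted p = 0.0457). The 72 h call was lost with DESeq2 (0.16, adjusted p = 0.0612).

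DSC3 was 0.52 ± 0.17 higher in mut cells at 24 h (adjusted p = 0.0177) and 0.55 ± 0.17 higher at 72 h (adjusted p = 0.0116). The solvent difference of 0.49 ± 0.17 (adjusted p = 0.0512) came from groups that did not overlap, 140 to 183 CPM in WT and 193 to 222 CPM in mut cells. It passed with TMM factors (0.50, adjusted p = 0.0404) and without WT solvent 27-1 (0.59, adjusted p = 0.0346). It did not pass with clone sums (adjusted p = 0.149) or without the series 27-2 (adjusted p = 0.106). The 24 h call was lost without WT 24 h 2-2 (0.38, adjusted p = 0.094) or 27-2 (0.46, adjusted p = 0.0578), and the 72 h call without WT 72 h 2-2 (0.33, adjusted p = 0.0998). Neither call held in the quasi-likelihood test of edgeR (0.39 and 0.41, adjusted p = 0.0694 and 0.0514). With clone sums the 24 h call was lost too (adjusted p = 0.0826). DSG3 differences were between 0.13 and 0.36 and not called, with adjusted p between 0.47 and 0.754.

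DSC2 was lower in mut cells by 0.78 on the log2 scale at 24 h (SE 0.25, adjusted p = 0.0155) and at 72 h (SE 0.26, adjusted p = 0.0184), and the ranges did not overlap. At 24 h DSC2 spanned 74.2 to 171 CPM in WT and 62.7 to 66.3 CPM in mut cells. The 24 h call was lost without WT 24 h 27-1 (-0.57, adjusted p = 0.0834), and the 72 h call without WT 72 h 2-1 (-0.70, adjusted p = 0.055) or 27-1 (-0.57, adjusted p = 0.0957). The 72 h call was also lost without the series 1-2. In solvent the DSC2 difference was -0.12 ± 0.26 (adjusted p = 0.823). At 6 h it was -0.57 (adjusted p = 0.105), and it passed without WT 6 h 27-2 (-0.85, adjusted p = 0.0129), with DESeq2 (adjusted p = 0.0428) and with clone sums (adjusted p = 0.00796).

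JUP was lower in mut cells by 0.60 ± 0.13 at 24 h (adjusted p = 0.000784) and by 0.67 ± 0.13 at 72 h (adjusted p = 0.000207), in both cases without overlap and in all 19 alternatives. At 72 h JUP spanned 399 to 627 CPM in WT and 293 to 324 CPM in mut cells. In solvent and at 6 h the differences were -0.29 (adjusted p = 0.153) and -0.34 (adjusted p = 0.0704). The solvent difference passed without the series 27-2 (-0.40, adjusted p = 0.0197) and not with clone sums (adjusted p = 0.0589). The 6 h difference passed without WT 6 h 27-2 (-0.45, adjusted p = 0.0184), with edgeR (adjusted p = 0.0488), DESeq2 (adjusted p = 0.0294) and clone sums (adjusted p = 0.0321). DSP at 72 h differed by -0.38 ± 0.18 (adjusted p = 0.103), and this difference passed in 7 of 19 alternatives. Among them were TMM factors (-0.46, adjusted p = 0.0374), edgeR (adjusted p = 0.0347), DESeq2 (adjusted p = 0.0148) and clone sums (adjusted p = 0.0383). It also passed without the series 27-2 (-0.49, adjusted p = 0.00247) and without WT 72 h 27-2 (-0.49, adjusted p = 0.0435). Over all alternatives its adjusted p ranged up to 0.29. DSG2, PKP1 and PERP were not called between genotypes by limma-voom, and DESeq2 called DSG2 at 72 h (-0.17, adjusted p = 0.0433). In limma-voom the DSG2 values lay between -0.09 and 0.00.

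**Figure D2:**
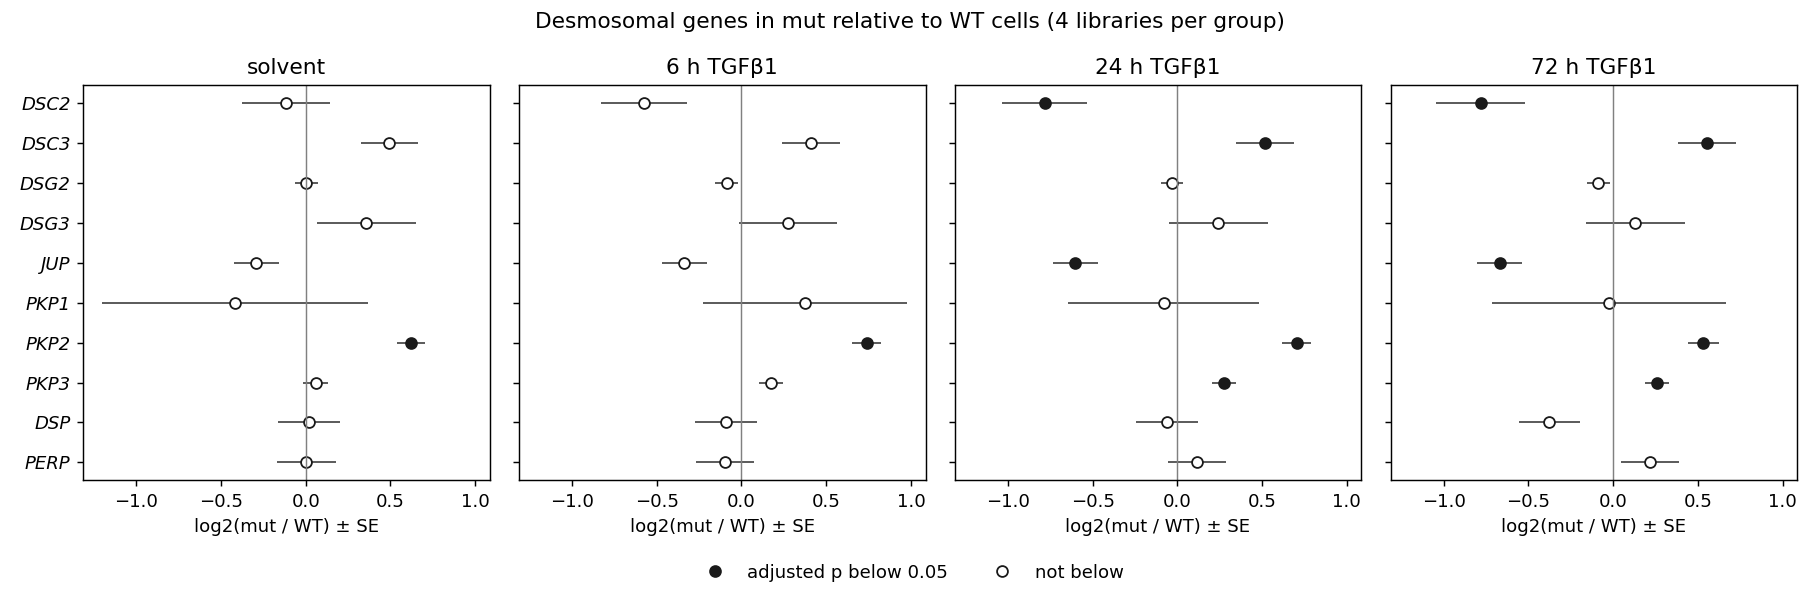
log2 ratio of mut over WT ± SE (x axis) for each member (y axis) in solvent and at 6, 24 and 72 h of TGFβ1, 4 libraries per group; filled points had an adjusted p below 0.05. PKP2 lies right of 0 in all 4 panels, and DSC2 and JUP are filled and left of 0 at 24 and 72 h.

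Whether the TGFβ1 change itself differed between genotypes was tested as an interaction (change in mut minus change in WT cells). In the limma-voom test 0 of 10 members passed at 6, 24 or 72 h, with 0, 1 and 0 members at an unadjusted p below 0.05. Of all genes 0.0673% were lower and 0.00673% higher at 6 h, 1.93% and 7.72% at 24 h, and 2.92% and 9.4% at 72 h. The quasi-likelihood test of edgeR and the Wald test of DESeq2 also called 0 members at each time. With the series as a replicate block 2 members passed at 24 h and 3 at 72 h, against 18.7% and 23.5% of all genes in either direction. All of these member calls were lower in mut cells, and the share of all genes lower in this fit is not given here. Without the block more of all genes were higher than lower at both times. At 6 h 0 members passed with the block, against 0.309% of all genes.

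DSC2 was the member with the greatest interaction in that fit, -0.68 ± 0.15 at 24 h (adjusted p = 0.0018) and -0.68 ± 0.15 at 72 h (adjusted p = 0.00168). At 72 h the 4 WT series changed by 0.03 to 0.33 and the 4 mut series by -0.70 to -0.36 on the log2 scale, so the series of the genotypes did not overlap. JUP gave -0.31 ± 0.11 at 24 h (adjusted p = 0.0438) and -0.38 ± 0.11 at 72 h (adjusted p = 0.0131). Its 72 h changes were 0.08 to 0.30 in WT and -0.34 to -0.09 in mut series. DSP gave -0.39 ± 0.10 at 72 h (adjusted p = 0.00388), from -0.15 to 0.19 in WT and -0.66 to -0.26 in mut series. Without the block the same 72 h interactions were -0.67 (DSC2, adjusted p = 0.252), -0.38 (JUP, 0.197) and -0.40 (DSP, 0.341). With clone sums as the unit none was called, the adjusted p being 0.0742 at 24 h and 0.0736 at 72 h for DSC2, 0.246 and 0.142 for JUP and 0.265 at 72 h for DSP. PKP2, whose level differed between genotypes, had an interaction of -0.09 ± 0.12 at 72 h (adjusted p = 0.695), which does not show that the responses were equal.

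Ratios of 2 members within a library do not depend on scaling, and 5 of them were compared over 4 group pairs with exact permutation tests (two-sided, 4 against 4 libraries). These tests did not pair libraries by series. The smallest p this design allows is 0.0286. Of the 20 tests, 7 reached it and 0 passed after Benjamini-Hochberg adjustment (smallest adjusted p = 0.0816). The 7 tests at that smallest p were too few for any to pass, so the adjusted result says little. The count ratio DSC3/DSC2 was 1.59, 2.79, 1.98 and 2.83 in WT solvent and 0.91, 0.997, 1.12 and 1.82 in WT 72 h, a log2 difference of -0.94 (exact p = 0.0571). All 4 WT series were lower at 72 h than in solvent. In mut cells the ratio was 3.10 to 3.52 in solvent and 2.83 to 3.11 at 72 h, a log2 difference of -0.20 (exact p = 0.0571) with all 4 series lower. The mut libraries lay above the WT libraries in both states (mut minus WT 0.60 in solvent and 1.34 at 72 h, exact p = 0.0286 each).

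DSG3/DSG2 was 0.979, 0.884, 0.996 and 0.479 in WT solvent and 0.251 to 0.592 in WT 72 h (log2 difference -1.11, exact p = 0.0571). In mut cells it went from 0.902 to 1.12 in solvent to 0.359 to 0.569 at 72 h (-1.25, exact p = 0.0286). Every series of both genotypes was lower at 72 h than in solvent. Reads of DSG3 and DSG2 were thus nearly equal in number in most solvent libraries, and DSG2 reads were in the majority in all 72 h libraries. PKP2/PKP3 was 0.457 to 0.593 in WT solvent and 0.317 to 0.374 in WT 72 h (-0.62, exact p = 0.0286), and 0.677 to 0.851 in mut solvent and 0.331 to 0.438 in mut 72 h (-0.91, exact p = 0.0286). JUP/DSP was lower in mut than in WT solvent by 0.31 on the log2 scale (exact p = 0.0286), and PKP1/PKP3 ratios had exact p between 0.114 and 0.6.

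Across the 32 libraries the members fell into patterns rather than a single one. These correlations describe libraries that share clones, series and treatments, on log2(CPM + 0.5). DSC2 and JUP had r = 0.90, DSG3 and PERP 0.87, DSC3 and PKP2 0.86, PKP2 and PKP3 0.81, and DSC2 and DSP 0.81. DSG2 had r = -0.80 to PKP3, -0.63 to PKP2, -0.46 to DSC3, -0.42 to DSG3 and -0.30 to PERP, and between -0.01 and 0.20 to the other 4. Against the mean of the other 9 members, r was 0.88 for DSG3, 0.85 for PERP, 0.77 for DSP and -0.33 for DSG2. Of 9636 other genes of at least 10 CPM, those most like the members' mean were CDH1, the adherens junction cadherin (r = 0.96), SLPI, a secreted protease inhibitor (0.92), F11R, a tight junction adhesion molecule (0.91), TINCR, an epidermal transcript (0.90), and ARHGEF37 (0.90). By Spearman's rho CDH1 ranked 3, SLPI 2, F11R 13, TINCR 7 and ARHGEF37 6. By correlation of the 8 group means CDH1 ranked 4, SLPI 3, F11R 7, TINCR 31 and ARHGEF37 85.

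Of 7 tested genes of the cornified envelope and further desmosomal genes (8 listed), 5 were lower in WT cells at 72 h (DSG1, PKP4, PPL, EVPL and KAZN) and none higher, against 38.4% and 13.9% of all genes, with a median of -0.55 against -0.19 for all genes. PPL, periplakin, had 152 ± 52.7 CPM in WT solvent and 18.4 ± 10.2 CPM in WT 72 h, a change of -3.15 (adjusted p = 4.6e-07). In mut cells it went from 307 ± 38.4 to 110 ± 18.2 CPM (-1.49, adjusted p = 0.00119), and its interaction was 1.66 (adjusted p = 0.0379). KAZN, kazrin, changed by -1.19 in WT and -0.67 in mut cells, with an interaction of 0.52 (adjusted p = 0.0126). DSG1 had 1.33 ± 0.732 CPM in WT solvent, 0.135 ± 0.147 CPM in WT 72 h and 0.197 ± 0.0663 CPM in mut solvent, levels too close to the floor for a fold change.

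Of 12 keratins, the filaments that DSP anchors, 6 were higher and 2 lower in WT cells at 72 h (13.9% and 38.4% of all genes), and 2 higher and 3 lower in mut cells (7.81% and 16.3%). KRT15, a basal keratin, changed by -4.64 in WT (adjusted p = 3.46e-07) and by -3.35 in mut cells (adjusted p = 3.48e-05), while KRT14 rose by 1.48 and 1.58. KRT6C rose by 0.81 in WT cells (adjusted p = 0.000159), and KRT8 had an interaction of -0.77 (adjusted p = 0.026). Of 6 hemidesmosome genes, whose junction anchors keratins to the matrix, 5 were higher and DST lower in WT cells at 72 h, against the same 13.9% and 38.4% of all genes. In mut cells at 72 h 4 were higher and DST lower, against 7.81% and 16.3% of all genes. CD151 rose by 0.79 in WT and 0.63 in mut cells, and ITGB4 by 0.71 and 0.76. COL17A1 rose by 0.61 in WT cells (adjusted p = 9.71e-06) and had -0.03 in mut cells (interaction -0.64, adjusted p = 0.00312).

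Of 9 adherens junction genes, 3 were higher and 2 lower in WT cells at 72 h, again against 13.9% and 38.4%. CDH1, E-cadherin, changed by -0.65 in WT (adjusted p = 0.0303) and -0.77 in mut cells (adjusted p = 0.0244), and CDH2, N-cadherin, by 1.65 and 1.28. The catenins CTNNA1 (interaction -0.25, adjusted p = 0.00406) and CTNNB1 (-0.42, adjusted p = 0.00918) rose in WT cells, as DSC2 and JUP did at 24 h. Of 15 tested transcription factors of epithelial junction genes (16 listed), 5 were lower and 3 higher in WT cells at 72 h (38.4% and 13.9% of all genes), and 6 and 3 in mut cells (16.3% and 7.81%). GRHL3, a grainyhead factor of epithelial differentiation, had 67.1 ± 16.9 CPM in WT solvent and 12.1 ± 6.69 CPM in WT 72 h, and the mut values were 66.1 ± 7.38 and 18.3 ± 2.50 CPM. ZNF750, a regulator of epidermal differentiation, went from 7.07 ± 3.81 to 0.979 ± 0.930 CPM in WT cells. SNAI1, which encodes the repressor SNAIL1, had 0.360 ± 0.279 CPM in WT solvent and 5.84 ± 0.890 CPM in WT 72 h, with mut values of 0.626 ± 0.112 and 3.61 ± 0.622 CPM.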

How the data were processed

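RNA-seq of 32 MCF10A libraries was analysed from the table of whole-number read counts per gene that the authors deposited. Per the study's methods, reads were trimmed with Trimmomatic, and aligned to GRCh38 (Ensembl) and counted with STAR. Versions and the strand setting of the counting are not given in the sources used here, and the library kit keeps no strand. The values are not normalized, and every sample column (0 left out) was used. Ensembl identifiers were matched to GENCODE 44, which named 17763 of 17788 genes. Groups came from the labels. The members, gene lists and tests were chosen with earlier results of these data known.

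The low-count filter was filterByExpr (edgeR 4.0.16) with min.count 10 and min.total.count 15, and 14865 genes passed. Library-size scaled counts went through voom, lmFit and eBayes with contrasts in limma 3.58.1 (R 4.3.3; model ~0 + condition, all 32 libraries, as in the study's methods). The 13 comparisons were two-sided, and genes were called at a Benjamini-Hochberg adjusted p under 0.05 over all genes tested, without a minimum fold. Adjusted p-values come from this test unless another is named. Ratios used counts plus 0.5 and exact permutation tests in scipy 1.17.1. The promoter windows are from RefSeq (GRCh38.p14).

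The alternatives were TMM factors, a quasi-likelihood fit in edgeR, DESeq2 1.42.0 (Wald), all genes of the table or those averaging 50 counts or more, only the groups compared, the series or the replication number as a replicate block, sums of a clone's replications, clone as a random effect, removal of the series 27-2 or 1-2, and leaving out each library in turn. The series block with TMM factors was chosen after seeing the data. Pairing follows the labels, which give clone and replication, and deviations from group means correlated with a mean r of 0.346 between libraries of a series (48 pairs, 0.0225 to 0.721), against 0.0183 for the other replication of the clone. The study calls the replicates of this experiment independent and biological, while the labels do not say that replications were separate cultures. The p-values measure the spread between these libraries, which may be partly technical. Chi-square per degree of freedom within groups was at least 11.5, and each library was counted as 1 sample. Precision from depth covers counting error only, since reads carry no molecular identifiers and may come from 1 molecule more than once.

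Named genes were the 10 members and JUNB, the 5 genes most like the members' mean (Pearson, at least 10 CPM), and from each list up to 3 genes with the largest called change in WT cells at 72 h plus those with a called interaction at 72 h. The tests were tested on simulated data.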

Additional observations from a re-analysis of the deposited data

Results flagged for a closer look

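Within groups of 4 libraries, 1 library stood far from the other 3 by Dixon's test at the 95% level in 6 of 80 combinations of member and group, and chance alone singles out about 1 in 20 groups. The library WT 6 h 27-2 accounted for 3 of them, with DSG3 at 172 CPM (others 393 to 435), JUP at 435.5 CPM (others 585 to 612) and PERP at 644.7 CPM (others 1094 to 1189). DSC3 in WT solvent 27-1 was 183 CPM (others 140 to 144). DSC2 in mut 6 h 1-1 was 74.9 CPM (others 58.0 to 60.1). PERP in mut 72 h 65-2 was 1000.3 CPM (others 794 to 819), the library in which DSG2 was the lowest of its group at 408 CPM.

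The TGFβ1 changes of 3 members differed between genotypes when the series entered as a replicate block, and there the difference itself was tested. In that fit 2 of 10 members passed at 24 h and 3 of 10 at 72 h, against 18.7% and 23.5% of all genes in either direction. The member calls were all lower in mut cells, and the share of all genes lower in that fit is not given here. The mut change was lower than the WT change for DSC2 at 24 h by -0.68 on the log2 scale and at 72 h by -0.68, for JUP at 24 h by -0.31 and at 72 h by -0.38, and for DSP at 72 h by -0.39. None of the 5 passed without the block or with clone sums.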

How the results depend on the processing

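No called member changed sign under any alternative. With TMM factors 2 members were called at WT 6 h, 0 at mut 6 h, 2 at mut 24 h and 2 for mut against WT in solvent. The quasi-likelihood test of edgeR gave 2, 0, 2 and 2 for these and 2 for mut against WT at 6 h. DESeq2 gave 2, 0, 3, 2 and 3. Fitting only the 2 groups compared gave 0 at mut 6 h, 4 at mut 24 h and 2 for mut against WT in solvent and at 6 h. A mean count of at least 50, which leaves out PKP1, gave 2 for mut against WT in solvent. Sums of a clone's replications gave 0 at mut 6 h, 2 at mut 24 h and 3 for mut against WT at 6 h. Removal of the series 27-2 gave 2 at WT 6 h, 2 for mut against WT in solvent and 3 at 6 h. Leaving out 1 library in turn gave 1 to 3 at WT 6 h, 0 to 1 at mut 6 h, 1 to 2 for mut against WT in solvent and 1 to 3 at 6 h. The cause of these changes was not tested.

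The series as a replicate block called 4 members at WT 6 h, 8 at WT 24 h, 3 at mut 6 h, 5 at mut 24 h, 8 at mut 72 h, and 2 and 3 in the interactions at 24 and 72 h. With TMM factors added, the block called 4, 7, 3, 5 and 6 in these 5 comparisons and 2 and 3 in the interactions, and at WT 72 h it called 9 (5 lower and 4 higher), against 6 (5 lower and 1 higher) without either. The replication number as a replicate block gave 2 at WT 6 h, 2 at mut 24 h, 2 for mut against WT in solvent and 3 at 6 h. The ratio comparisons passed no adjusted threshold under any alternative, a threshold that tests of 4 against 4 libraries could hardly reach. The counts of PKP1 limit what can be said of it, and only 2 clones stand for each genotype.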
